A study of Mus musculus with 4 samples.

Results

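The voltage-gated potassium channel genes Kcnh1, Kcnh2 and Kcnq3 were followed across the ganglion cell types of the mouse retina. They were chosen by name as the EAG, ERG and M-current channel genes of the panel and make up 3 of its 300 genes. Retinas of wild-type C57BL/6 mice, raised without manipulation and with free access to food and water, were cut on a cryostat into en face sections of 20 µm, which run along the plane of the retina. They were probed with Xenium, an imaging assay in which single transcripts are decoded as puncta inside segmented cells, and the stated purpose was a map of retinal ganglion cell subtypes. The deposited table held 131379 cells of 45 types, each type assigned by the authors, from 5 retinas. All samples form 1 group of untreated wild-type retinas, so every comparison lies within retinas, between types, positions, cell sizes or cells with and without a gene. Nothing in the labels ties each retina to an animal of its own, so p-values cover only the spread between these 5 retinas. Fits with the section or slide as a block are the exception, as they count sections or slides of the same retina as replicates.

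Kcnh1 encodes EAG, named after the fly gene ether-à-go-go, a voltage-gated potassium channel whose activation slows when the membrane starts from a negative potential and which calcium-calmodulin inhibits. Kcnh2 encodes ERG, a channel of the same family that inactivates quickly and deactivates slowly, and that carries a repolarising current in the heart. Kcnq3 encodes a subunit of the channel behind the M-current, a slow potassium current that limits repetitive firing, is suppressed by muscarinic receptors and is concentrated at the axon initial segment. Retinal ganglion cells send all visual signals to the brain as spikes, so channels of this kind shape the firing of each type.

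The retinas held 35099, 41048, 13127, 27734 and 14371 cells, with medians of 326, 297, 285, 295 and 304 puncta per cell in retinas 1 to 5. Each cell held at least 100 puncta, and no cell identifier was shared. Of 7 listed ganglion cell markers 4 were on the panel, and of these Slc17a6 was found in 97.4% of cells, Rbpms in 94.8%, Nefh in 91.6% and Pou4f2 in 40.6%. The type 44_Novel, with 31 to 81 cells per retina, was the highest of all types on each of 4 lists of markers of other cells. The 2 microglia markers Tmem119 and Aif1 summed to 89.0 puncta per 10000 there, against a median of 1.38 over the other types, and the endothelial gene Cdh5 stood at 121, against 1.84. The 5 Mueller glia markers summed to 202, against 48.9, and the 9 amacrine markers to 257, against 147. The part of puncta of other cells in the Kcnh1 and Kcnh2 levels of 44_Novel given below was not tested. Levels below are puncta of a gene per 10000 panel puncta of the same cells, which allows for depth but not for how well each probe set works, so levels are compared between cells and not between genes.

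Over all cells, Kcnh1 stood at 12.7, 14.5, 12.9, 14.5 and 12.9 puncta per 10000 in retinas 1 to 5, a mean of 13.5 ± 0.92 (SD, n = 5). Retinas 2 and 4 were high and the other 3 lay close together. Kcnh2 stood at 67.3, 62.6, 67.3, 65.5 and 67.1, a mean of 65.9 ± 2.03, with retina 2 the lowest. Kcnq3 stood at 26.4, 24.4, 23.5, 24.5 and 23.4, a mean of 24.4 ± 1.20, with retina 1 the highest. A mean of 0.432 puncta of Kcnh1, 2.11 of Kcnh2 and 0.784 of Kcnq3 was decoded per cell. Kcnh1 was seen in 27.8% ± 1.0 of cells, Kcnh2 in 76.0% ± 1.2 and Kcnq3 in 45.1% ± 1.9, and no cell held more than 20, 32 and 18 puncta of these genes. A cell without a punctum need not be a cell without the transcript.

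Kcnh1, the EAG gene, set the types apart most strongly of the 3. It was highest in the type 40_M1dup, with 62.7, 67.4, 51.9, 71.5 and 44.0 puncta per 10000 in retinas 1 to 5 (mean 59.5 ± 11.4, SD). The type 33_M1, whose name likewise marks an intrinsically photosensitive ganglion cell, followed with 56.6, 53.0, 45.2, 60.4 and 38.5 (50.7 ± 8.9). In both types retina 5 was the lowest and retina 4 the highest. Next came 27_Novel at 45.5 ± 6.6, 44_Novel, the type highest in markers of other cells, at 38.7 ± 11.9 and 37_Novel at 35.3 ± 4.4. At the other end stood 04_FminiOFF, with 2.32, 2.64, 3.04, 2.93 and 2.05 (2.60 ± 0.41), 34_Novel (2.61 ± 0.30), 23_W3D2 (2.79 ± 0.48), 06_W3B (3.09 ± 0.41) and 30_Novel (3.63 ± 0.71). The 5 highest and 5 lowest types did not overlap in any retina, and the highest type stood 22.9-fold above the lowest (17.1 to 27.1 over the retinas). Types may have been assigned with these same genes, so the levels by type are a description without a test.

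Kcnh2, the ERG gene, was measured in every type and was highest in the OFF alpha cells, large ganglion cells that respond to light decrements. In 42_AlphaOFFS it stood at 139, 141, 154, 156 and 156 puncta per 10000 in retinas 1 to 5 (149 ± 8.3). In 45_AlphaOFFT it stood at 118, 117, 126, 121 and 115 (119 ± 4.3), below every retina of 42_AlphaOFFS. The types 37_Novel (112 ± 5.6), 34_Novel (110 ± 2.9) and 40_M1dup (101 ± 3.7) followed. The lowest were 35_Novel, with 30.0, 35.1, 31.1, 36.4 and 35.4 (33.6 ± 2.8), then 20_Novel (38.2 ± 1.8), 19_Novel (38.3 ± 3.1), 39_Novel (38.6 ± 2.4) and 44_Novel (38.7 ± 6.5). The highest type stood 4.44-fold above the lowest (4.01 to 4.95 over the retinas), a much narrower span than that of Kcnh1.

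Kcnq3, the M-current subunit gene, was highest in 25_Novel, with 58.9, 57.5, 52.4, 60.6 and 55.3 puncta per 10000 in retinas 1 to 5 (56.9 ± 3.2). The type 12_ooDS_NT, named as an ON-OFF direction-selective cell, held 63.1, 57.2, 49.4, 56.0 and 50.1 (55.2 ± 5.6), and its retinas overlapped those of 25_Novel. The types 20_Novel (47.6 ± 3.2), 35_Novel (47.5 ± 6.6) and 24_Novel (44.0 ± 3.2) came next. The lowest was 45_AlphaOFFT, with 9.56, 9.63, 11.6, 8.07 and 8.48 (9.46 ± 1.35), together with 43_AlphaONS (9.50 ± 1.14), 14_ooDS_Cck (9.55 ± 1.52), 06_W3B (9.74 ± 0.56) and 30_Novel (9.88 ± 1.16). Those 5 types could not be put in order, and all of them lay below every retina of the 5 highest. The highest type stood 6.02-fold above the lowest (4.54 to 7.50 over the retinas).

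**Figure D1:**
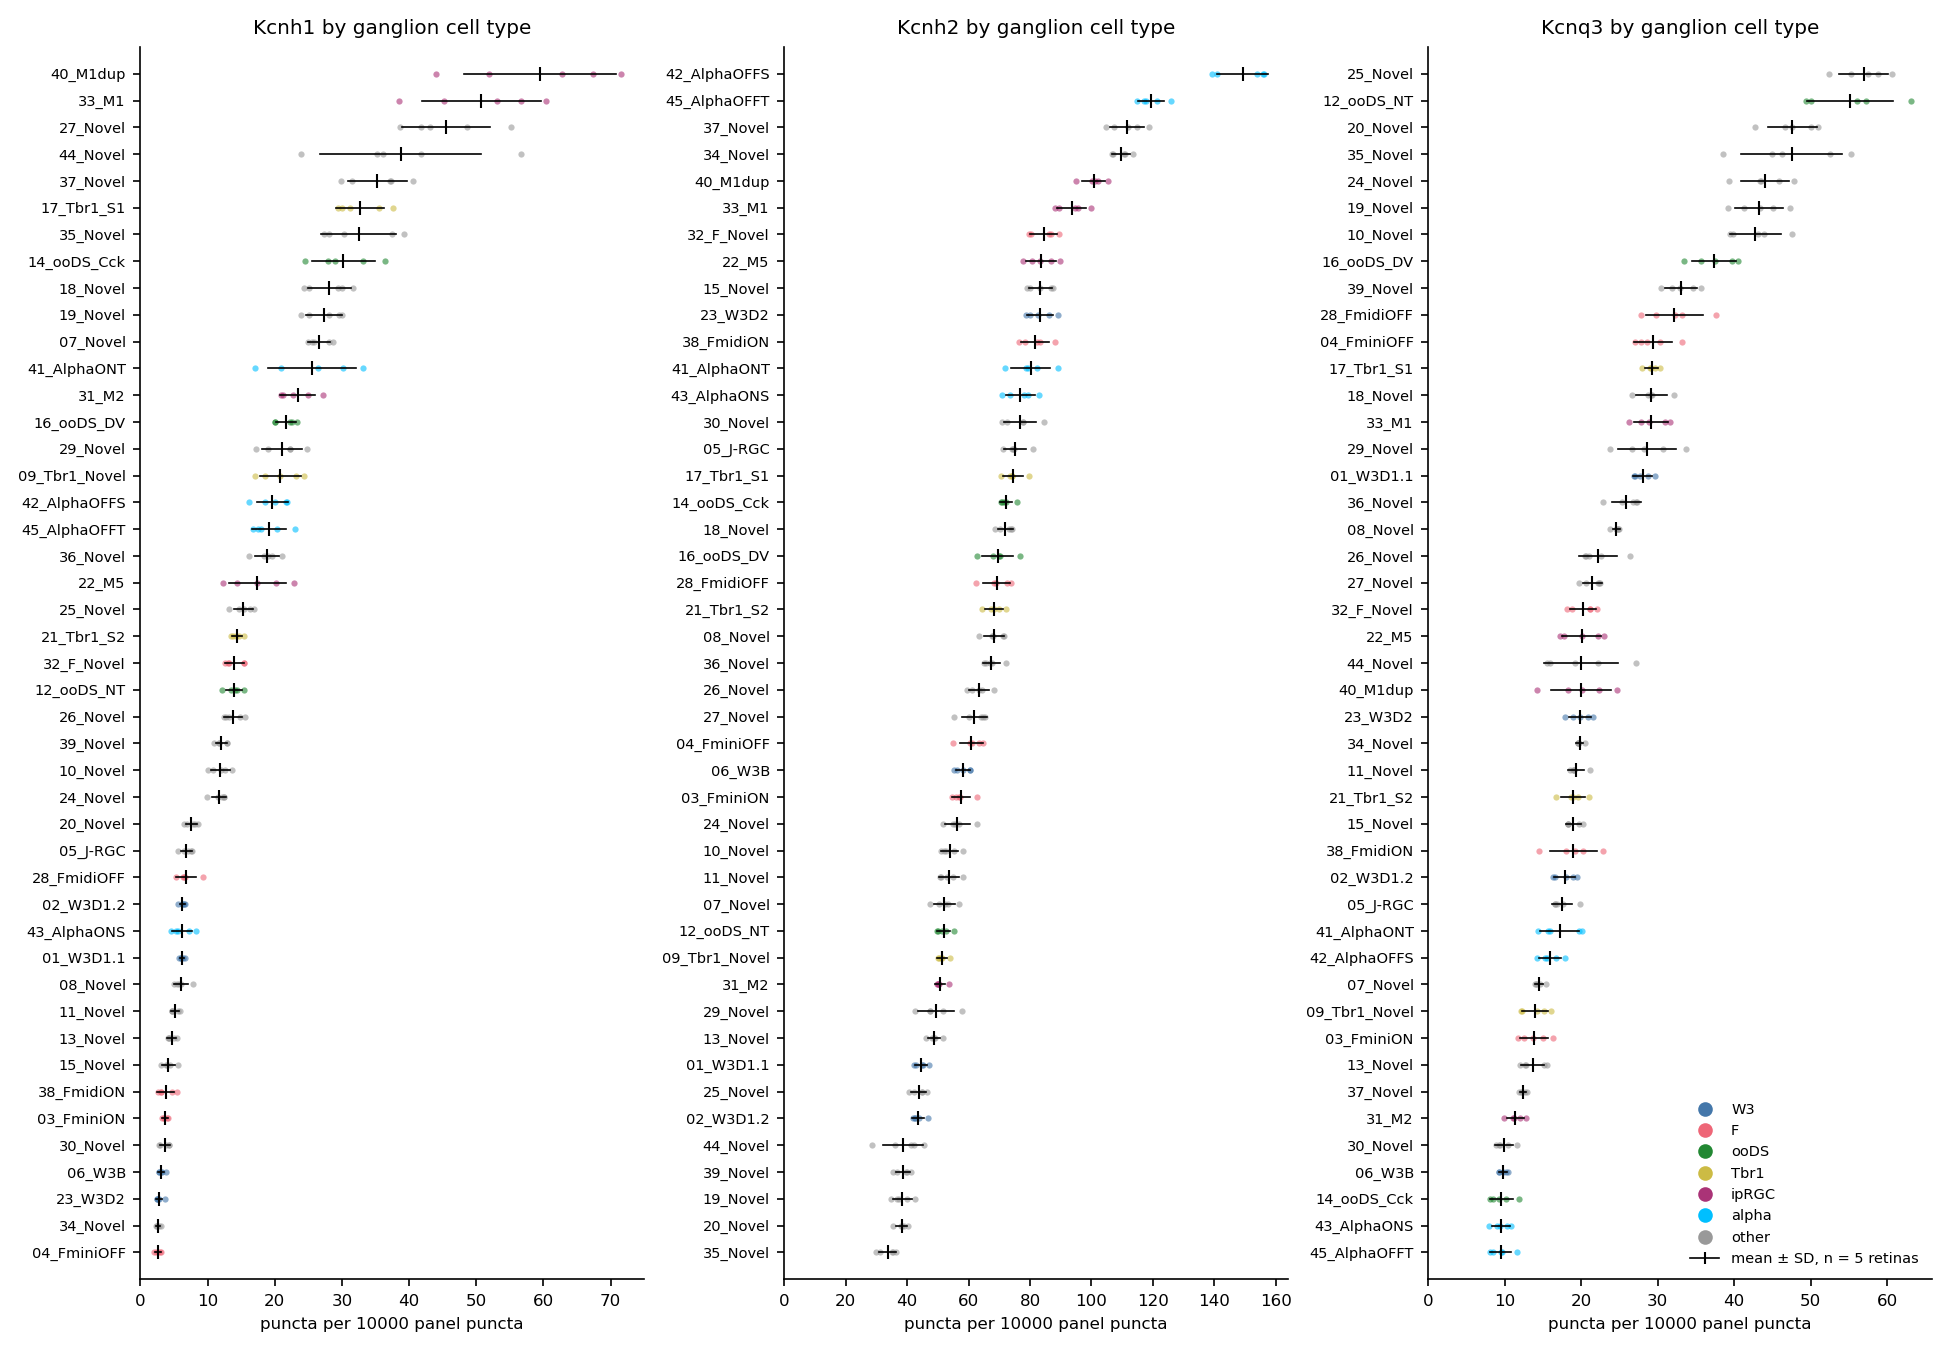
Level of Kcnh1, Kcnh2 and Kcnq3 in each of the 45 types, in puncta per 10000 panel puncta on a linear axis that starts at 0. Points are the 5 retinas, coloured by the family in the type name, with mean ± SD in black; 40_M1dup leads Kcnh1 at 59.5, 42_AlphaOFFS leads Kcnh2 at 149 and 25_Novel leads Kcnq3 at 56.9.

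The plot of levels by type shows a graded order with few steps. Between neighbours in that order, the difference of means was larger than the larger of the 2 SDs in 2 of the 44 steps for Kcnh1, 8 for Kcnh2 and 6 for Kcnq3, so 42, 36 and 38 neighbouring pairs did not differ beyond their spread. For Kcnh1 one such step lay between 24_Novel (11.7) and 20_Novel (7.59), where no retina overlapped. For Kcnh2 the 6 highest types were set apart step by step except 37_Novel and 34_Novel, which could not be told apart. The order itself was much the same in each retina: over the 10 pairs of retinas the Spearman correlation across the 45 types was 0.977 to 0.987 for Kcnh1, 0.962 to 0.991 for Kcnh2 and 0.930 to 0.969 for Kcnq3. Set among the 30 panel genes whose symbols begin with Kcn, Kcnh1 had the second widest spread over types, with an SD of 1.16 in log2 level, after Kcnd2 at 1.22. Kcnq3 ranked 12 with 0.68 and Kcnh2 ranked 23 with 0.48, near and below the median of 0.66 over all 300 genes.

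Between the highest and lowest types, the number of puncta in single cells differed as the levels did. Over all types the order of the levels was not kept. A Kcnh1 punctum was found in 31.6% ± 6.0 of 44_Novel cells, against 58.6% ± 3.0 of 17_Tbr1_S1 cells, which had a lower level. At least 5 puncta of Kcnh2 were found in 60.9% ± 5.0 of 42_AlphaOFFS cells and in 1.06% ± 1.6 of 35_Novel cells. For Kcnh1, 70.9% ± 10 of 40_M1dup cells and 7.03% ± 0.86 of 04_FminiOFF cells held at least 1 punctum. For Kcnq3 the shares were 80.9% ± 2.2 of 25_Novel cells and 30.6% ± 3.6 of 45_AlphaOFFT cells. Even in the highest type, then, a part of the cells had no Kcnh1 or Kcnq3 punctum. With each cell thinned to 100 puncta, which removes the difference in depth, Kcnh1 was seen in 41.1% ± 6.2 of 40_M1dup cells and Kcnq3 in 43.9% ± 1.4 of 25_Novel cells. Over all cells so thinned, the share was 11.4% ± 0.93 for Kcnh1 and 44.7% ± 0.66 for Kcnh2.

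Within groups of types that share a name, the 3 genes split the members differently. Of the 3 ON-OFF direction-selective types, 14_ooDS_Cck had the most Kcnh1 (30.2 ± 4.7 puncta per 10000) and the least Kcnq3 (9.55 ± 1.52). In 16_ooDS_DV Kcnh1 stood at 21.6 ± 1.5 and Kcnq3 at 37.3 ± 2.9, and in 12_ooDS_NT Kcnh1 stood at 13.9 ± 1.2 and Kcnq3 at 55.2 ± 5.6. The 3 types therefore ran in opposite orders for the EAG gene and the M-current gene, with no overlap of retinas for either gene. Kcnh2 had its means in the order of Kcnh1, at 72.2 ± 2.0 in 14_ooDS_Cck, 69.4 ± 5.0 in 16_ooDS_DV and 51.8 ± 2.2 in 12_ooDS_NT.

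Among the 4 alpha types, Kcnh2 separated the OFF types from the ON types. The OFF types 42_AlphaOFFS and 45_AlphaOFFT stood at 149 and 119, against 80.2 ± 6.3 in 41_AlphaONT and 76.9 ± 4.7 in 43_AlphaONS, and no retina overlapped between OFF and ON. Kcnh1 instead set 43_AlphaONS apart, with 5.37, 4.59, 5.65, 7.22 and 8.31 in retinas 1 to 5 (6.23 ± 1.51), against 25.5 ± 6.6 in 41_AlphaONT, 19.6 ± 2.3 in 42_AlphaOFFS and 19.1 ± 2.6 in 45_AlphaOFFT. The alpha group as a whole was highest of the 6 named groups in Kcnh2 (110 ± 4.8) and lowest in Kcnq3 (12.1 ± 0.80).

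The 4 types named as intrinsically photosensitive cells, which express the photopigment melanopsin, fell in 2 pairs for Kcnh1. The types 40_M1dup and 33_M1 stood at 59.5 and 50.7, against 23.4 ± 2.6 in 31_M2 and 17.4 ± 4.3 in 22_M5. Kcnh2 did not follow those pairs: 31_M2 was low (50.7 ± 1.6), while 40_M1dup (101), 33_M1 (93.6 ± 4.7) and 22_M5 (83.6 ± 4.8) were above it in every retina. As a group they were highest of the 6 in Kcnh1, at 33.4 ± 5.0, against 5.64 ± 0.57 in the F types and 5.17 ± 0.27 in the W3 types. The direction-selective group was the highest in Kcnq3, at 35.8 ± 3.0. Puncta of microglia markers also stood out in 33_M1, at 19.8 per 10000 the highest level outside 44_Novel. The 9 amacrine markers were likewise highest there outside 44_Novel, at 244 per 10000, against 257 in 44_Novel and a median of 147. The part of such puncta in the Kcnh1 level of 33_M1 was not tested.

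**Figure D2:**
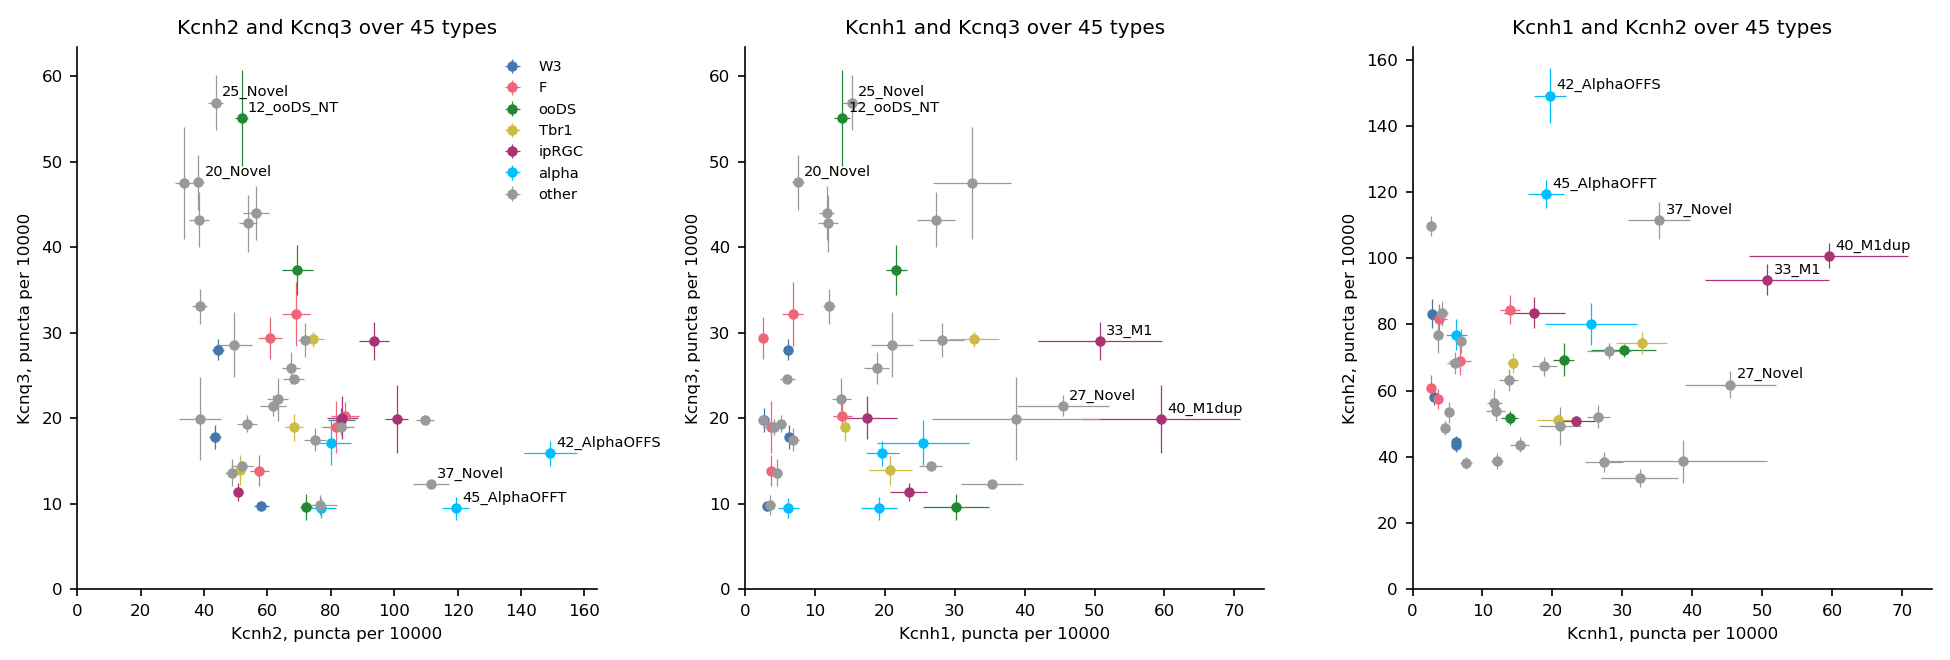
Mean level of one channel gene against another in the 45 types, in puncta per 10000 panel puncta, with bars of ± SD over 5 retinas and colours by family. High Kcnq3 is found at low to middle Kcnh2, while Kcnh1 shows no slope with either gene.

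Across the 45 types, the log2 levels of Kcnh2 and Kcnq3 had a Pearson correlation of -0.44, those of Kcnh1 and Kcnq3 0.15 and those of Kcnh1 and Kcnh2 0.02. The points share the same 5 retinas, and each level is a share of the same total of puncta, so the correlations describe the types and carry no test. In the plot of gene pairs no type was near the top for both Kcnh2 and Kcnq3. The OFF alpha types and 37_Novel held the corner of high Kcnh2 and low Kcnq3, while 35_Novel, 20_Novel and 25_Novel held the opposite corner.

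For each channel gene, the most like and most opposed panel genes were picked from 299 by their correlation over the types. Their values are therefore no measure against those of the fixed pairs of channel genes. For Kcnq3, Kcnh2 itself ranked 296 of 299, next to the most opposed genes. The genes most like Kcnh1 were the cannabinoid receptor gene Cnr1 (Pearson correlation 0.61 over 45 types), Frmd5 (0.55), Lamp5 (0.53), the synaptic vesicle GTPase gene Rab3b (0.53) and the growth factor gene Igf1 (0.52). Most opposed to Kcnh1 were Kcnip4 (-0.69) and Kcnd2 (-0.65), which encode an auxiliary subunit and a pore subunit of A-type potassium channels, and the transcription factor gene Isl2 (-0.62). Kcnh1 was thus low in the types with the most Kcnd2 and Kcnip4, such as 30_Novel and 03_FminiON.

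The pattern of Kcnh2 was most like those of the kinase gene Stk32a (0.66), Kcnab3, which encodes an auxiliary subunit of potassium channels (0.58), the receptor gene Gprc5b (0.58), the osteopontin gene Spp1 (0.56) and Coch (0.53). It was most opposed to the ganglion cell gene Rbpms (-0.69), the kainate receptor subunit gene Grik5 (-0.63) and Cacng7, an auxiliary subunit of AMPA receptors (-0.58). Kcnq3 was most like Tafa1 (0.68), the transcription factor gene Neurod2 (0.64), Nell1 (0.64), Lrrn3 (0.56) and the NMDA receptor subunit gene Grin2b (0.53). Most opposed to Kcnq3 were Gprc5b (-0.52), Kcnab3 (-0.51) and Fgf1 (-0.50), the first 2 of which were among the genes most like Kcnh2. Leaving out the top type of the channel gene put the positive correlations named for the 3 genes at 0.47 to 0.67 and the negative ones at -0.68 to -0.47. The top types of the partner genes were not left out.

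**Figure D3:**
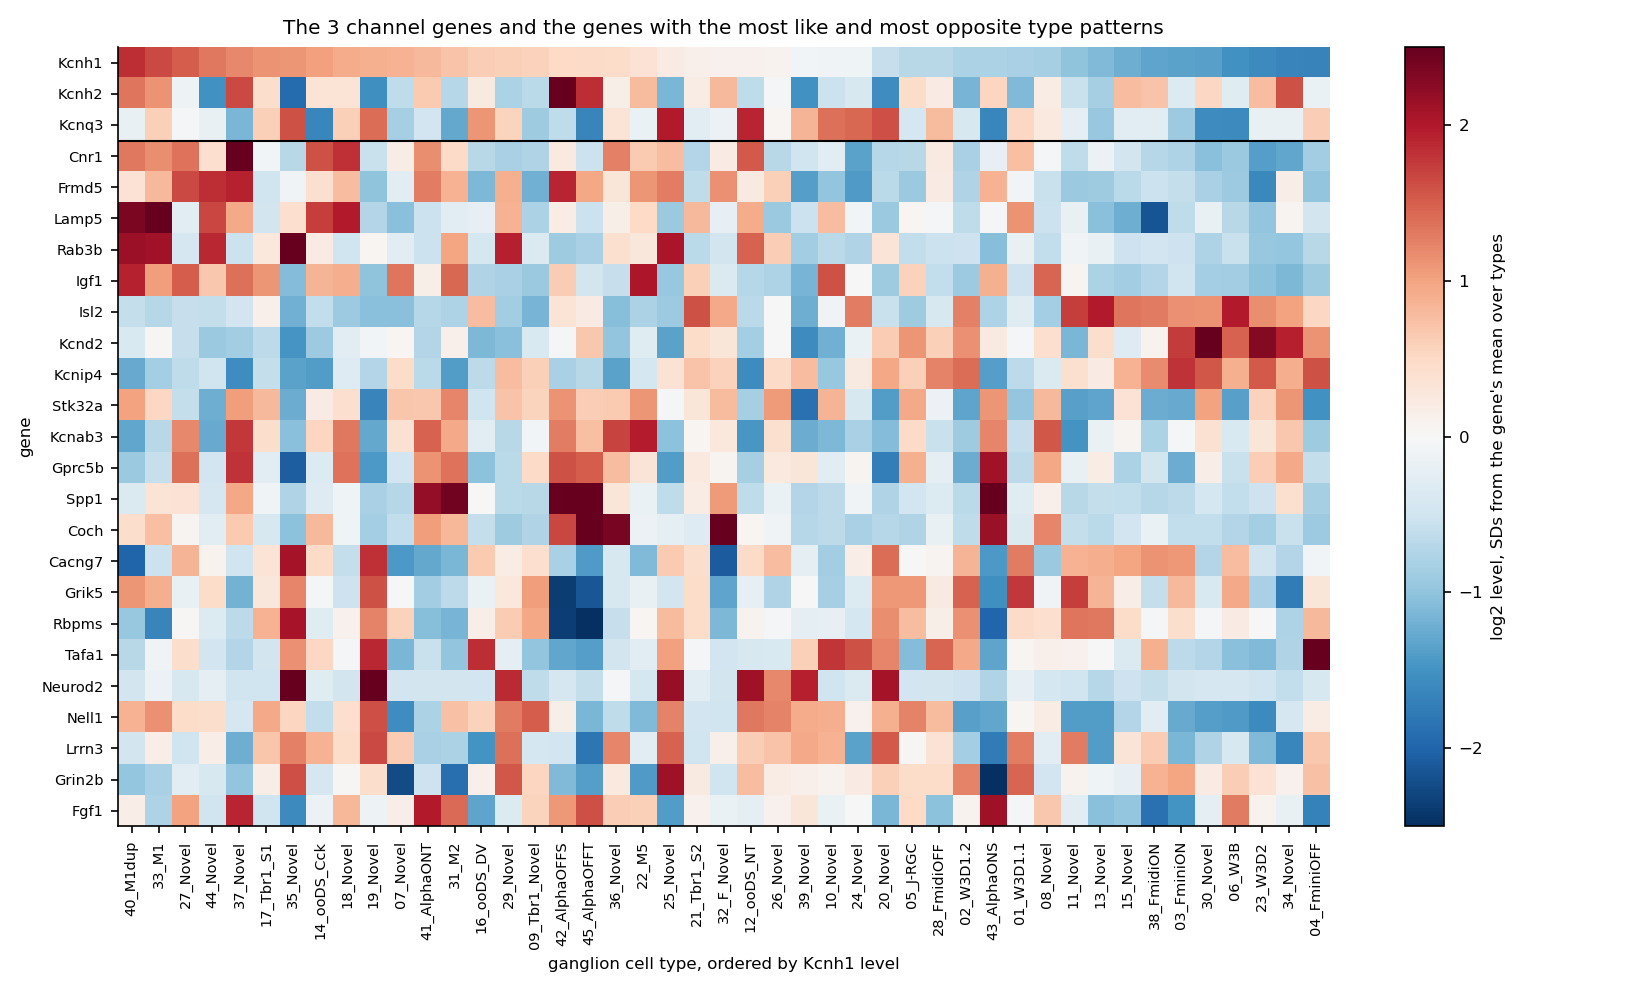
Log2 level of the 3 channel genes (above the line) and of the genes with the most like and most opposed patterns in the 45 types, ordered by Kcnh1. Colours give SDs from each gene's mean over types and are capped at 2.5 SDs; Kcnip4, Kcnd2 and Isl2 grow redder where Kcnh1 grows bluer.

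Levels of the 3 genes spanned a far narrower range over positions than over types, which may have been assigned with these same genes. Positions were scaled to a circle by the authors, and a scaled radius of 0.5 separated periphery from centre. Kcnq3 stood at 26.0, 23.9, 22.1, 23.7 and 22.3 puncta per 10000 in the periphery of retinas 1 to 5, against 27.5, 25.5, 24.6, 26.2 and 24.4 in the centre. It was lower peripherally in all 5 retinas, although the ranges of the sides overlapped. The log2 difference was -0.14 ± 0.03 (SE), with an adjusted p of 0.0488 in edgeR's quasi-likelihood test (Benjamini-Hochberg over the panel), where 20 of 300 genes or 6.67% were called, 10 higher and 10 lower (3.33% each). From the innermost to the outermost of 4 rings, the mean level of Kcnq3 was 25.6, 25.5, 24.1 and 22.6.

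That call was at the edge of the threshold. It held in DESeq2 (-0.13, adjusted p = 0.00758), with the split at a radius of 0.6 (-0.15, adjusted p = 0.0361 in edgeR) and without retina 1 (-0.15, adjusted p = 0.0234). It was lost without retinas 2, 3, 4 or 5 in turn (adjusted p = 0.249, 0.0811, 0.306 and 0.187), scaled to total puncta (adjusted p = 0.0519) and without the retina as a block (adjusted p = 0.606). With the slide or the section as a block the difference shrank to -0.062 and -0.049 (adjusted p = 0.587 and 0.371). With every type weighted alike in periphery and centre it was -0.096 ± 0.026 (adjusted p = 0.0923 in limma).

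Kcnh1 stood at 12.9, 14.7, 12.9, 14.9 and 13.6 puncta per 10000 in the periphery of retinas 1 to 5, against 12.2, 14.0, 12.8, 13.8 and 12.3 in the centre. It was higher peripherally in all 5 retinas, yet the log2 difference of 0.07 ± 0.04 was not called (adjusted p = 0.273 in edgeR). Its mean over the 4 rings from the innermost outward was 12.6, 13.2, 13.5 and 14.5. Kcnh2 averaged 66.4 ± 2.4 in the periphery and 65.2 ± 2.9 in the centre, a log2 difference of 0.01 ± 0.03 (adjusted p = 0.822), with 3 retinas higher and 2 lower. Of the 30 Kcn genes, 2 were lower in the periphery, Kcnq3 and the calcium-activated channel gene Kcnn2 (-0.13 ± 0.03, adjusted p = 0.0398), and 0 were higher. The median log2 difference was -0.04 over the Kcn genes and 0.0056 over all genes.

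Along the X axis, whose anatomical direction the labels do not give, none of the 3 genes was called while 30 of 300 genes or 10% were. Kcnh2 averaged 66.8 ± 2.0 puncta per 10000 at positive X and 64.9 ± 2.3 at negative X, a log2 difference of 0.05 ± 0.02 (adjusted p = 0.207 in edgeR), and was higher in all 5 retinas. Kcnh1 averaged 13.7 ± 0.88 at positive X and 13.3 ± 0.97 at negative X (0.05 ± 0.03, adjusted p = 0.353), also higher in 5 of 5. Kcnq3 averaged 24.0 ± 1.5 at positive X and 24.8 ± 1.1 at negative X (-0.04 ± 0.03, adjusted p = 0.435), lower in 4 of 5. With every type weighted alike on both sides, Kcnh2 differed by 0.0065 (higher in 3 of 5) and Kcnh1 by -0.0027 (higher in 1 of 5). With the section as a block the Kcnq3 difference was -0.095 (adjusted p = 0.0295 in edgeR). That fit counts sections of the same retina as replicates, so its p-value does not measure the spread between retinas.

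Along the Y axis edgeR called 0 of 300 genes (0%), with 29 at an unadjusted p under 0.05, and DESeq2 called 6. Kcnh1 averaged 13.5 ± 0.94 at positive Y and 13.5 ± 0.92 at negative Y, a log2 difference of -0.012 ± 0.035. Kcnh2 averaged 65.8 ± 2.2 at positive Y and 65.9 ± 2.5 at negative Y (-0.010 ± 0.031). Kcnq3 averaged 24.7 ± 1.4 at positive Y and 24.3 ± 1.2 at negative Y (0.011 ± 0.037), higher in retinas 1 to 4 and lower in retina 5. Differences of this size were not detectable with 5 retinas.

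**Figure D4:**
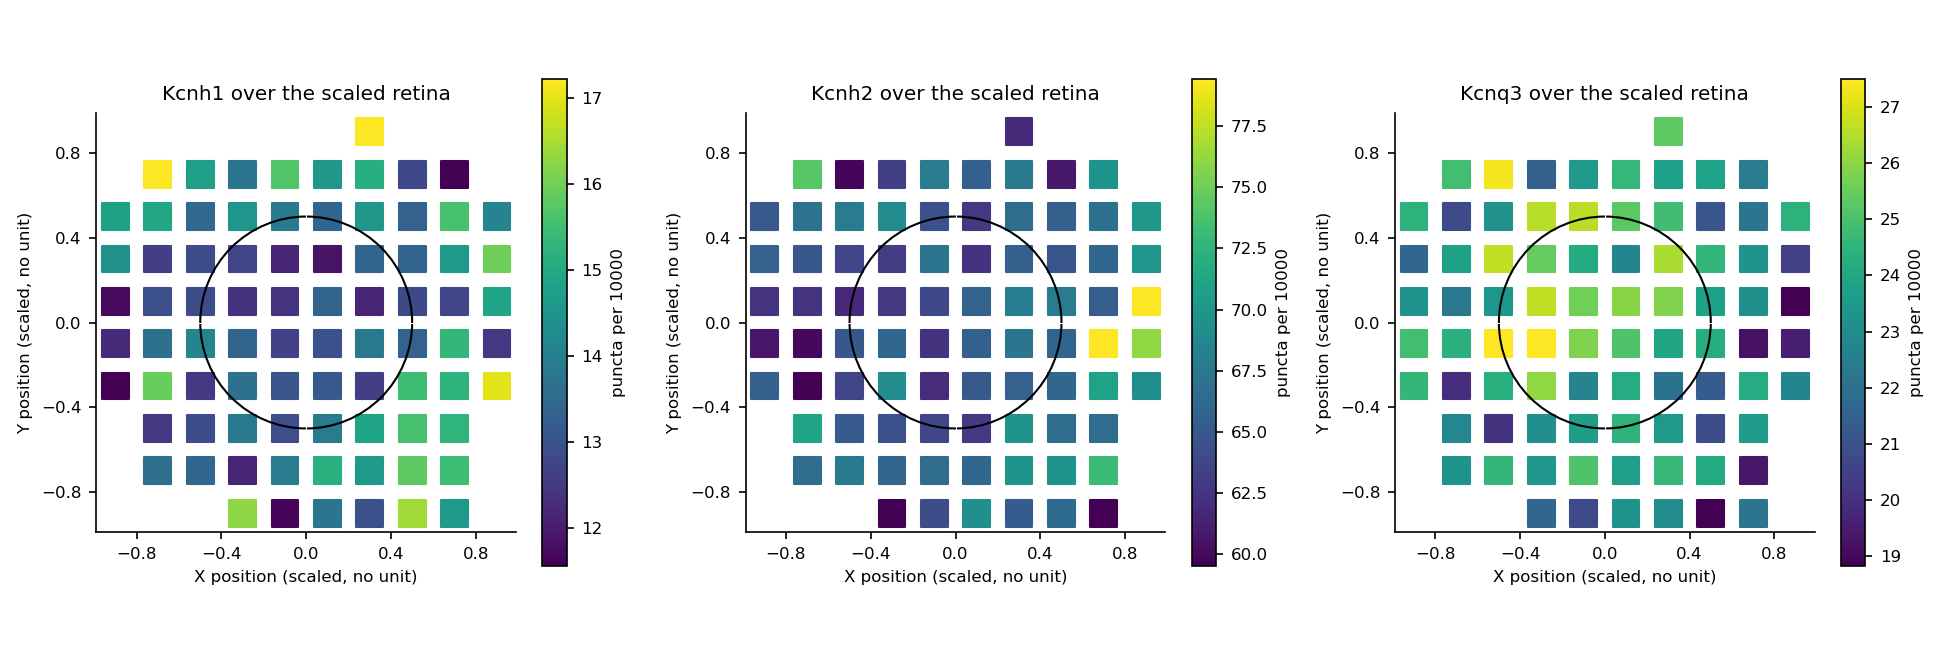
Mean level of each gene over at least 3 retinas in 81 squares of the scaled retina, in puncta per 10000 panel puncta, with the black circle at radius 0.5. Colour scales differ between panels and end at the lowest and highest 2% of squares, so they span 11.6 to 17.2 for Kcnh1, 59.5 to 79.4 for Kcnh2 and 18.8 to 27.5 for Kcnq3; high Kcnq3 squares lie mostly near or inside the circle.

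**Figure D5:**
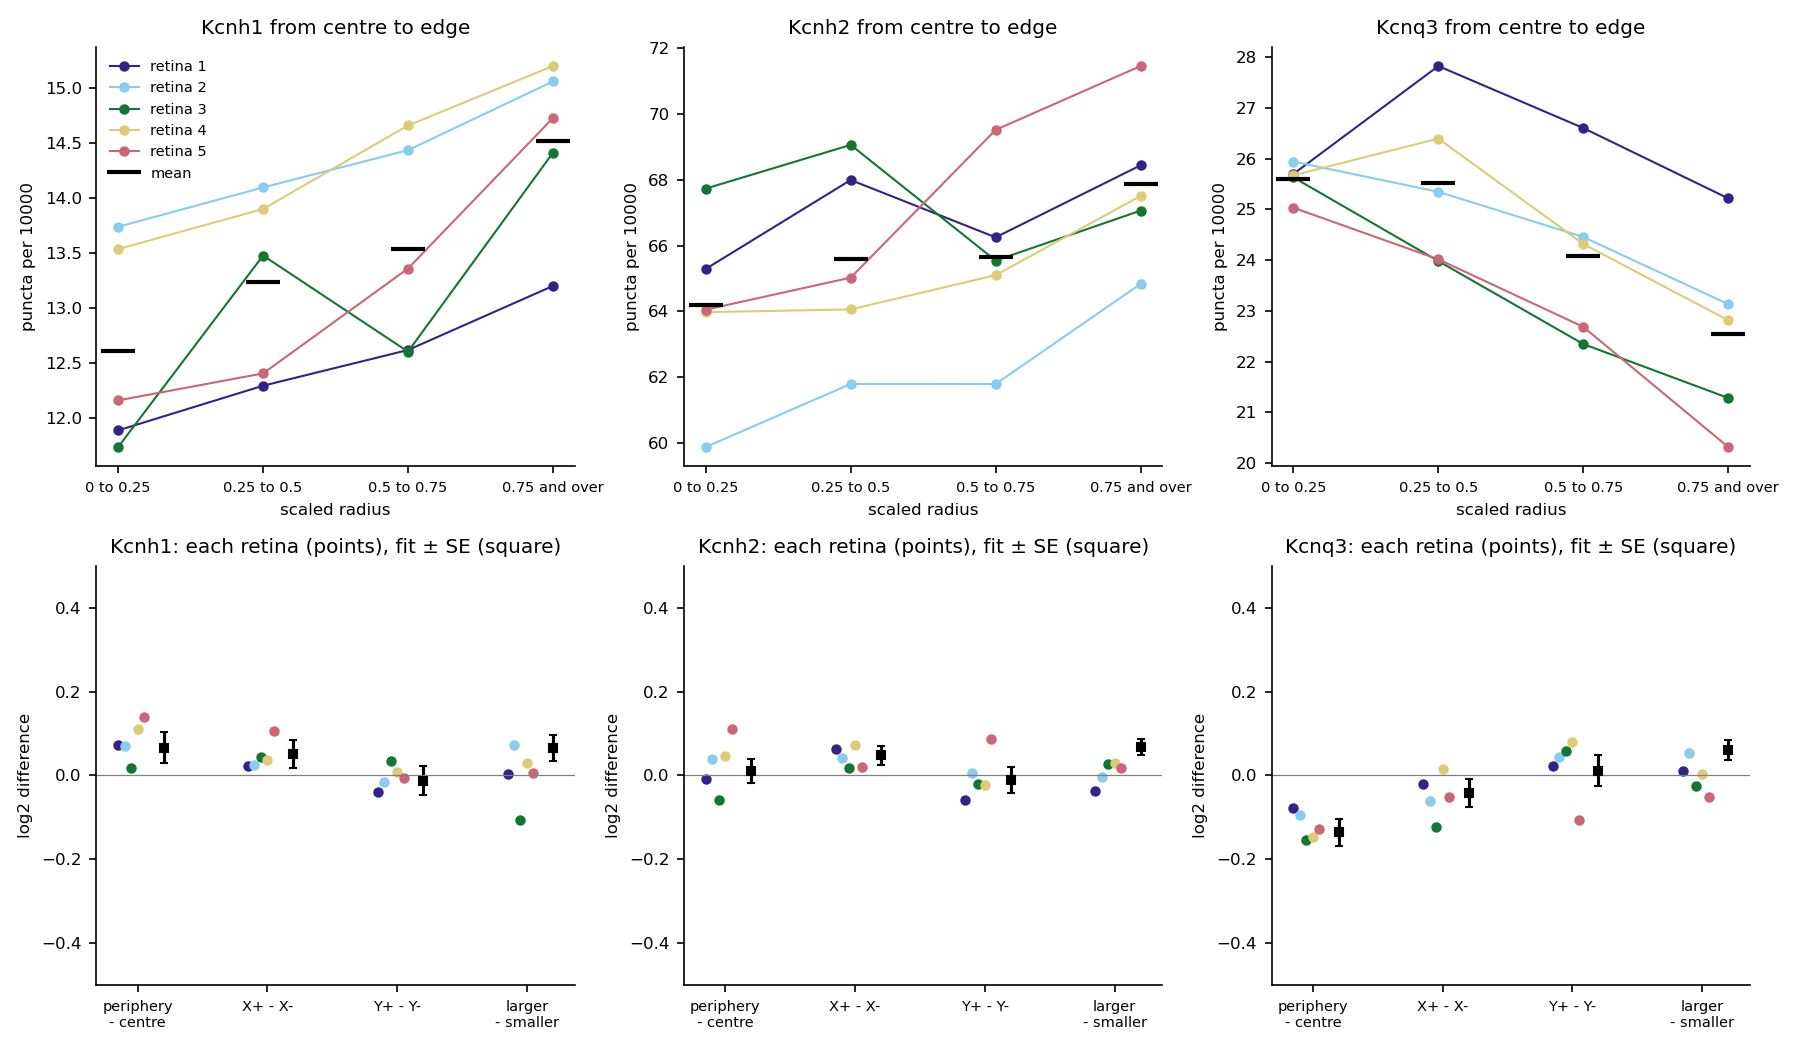
Top, level of each gene in 4 rings from centre to edge, one line per retina with the mean in black, on axes that do not start at 0. Bottom, log2 difference in each retina (points, from puncta per 10000) and from the edgeR fit with SE (square) for periphery minus centre, positive minus negative X, positive minus negative Y and larger minus smaller cells; the Kcnq3 points for the radius all lie below 0.

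The maps and the plot of rings show how narrow these ranges are beside those over types: the ring means of Kcnq3 ran from 22.6 to 25.6 puncta per 10000, while its type means ran from 9.46 to 56.9. The ranges are not alike in kind, as each ring pools all types and the types may have been assigned with these genes. Within single types, edgeR fits of 39 to 43 types per gene and axis called none of the 3 genes along any axis, against 2.34% of all type-gene pairs called along the radius, 0.281% along X and 0.37% along Y. No other tool was run within types. At an unadjusted p under 0.05, Kcnh1 stood in 6 types along the radius, 4 along X and 10 along Y. Kcnh2 did so in 2, 3 and 5 types, and Kcnq3 in 6, 2 and 3. The share of all type-gene pairs at that unadjusted threshold is not given here, so nothing is read from these counts.

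The lowest adjusted p-values within types were along the radius. Kcnq3 in 18_Novel stood at 31.4, 26.9, 20.7, 28.2 and 26.7 puncta per 10000 in the periphery of retinas 1 to 5, against 34.9, 33.9, 32.3, 31.3 and 30.6 in the centre (log2 difference -0.30 ± 0.10, adjusted p = 0.0999 in edgeR). It was lower peripherally in all 5 retinas, and retina 3 differed most. Kcnq3 in 30_Novel averaged 8.83 ± 1.24 in the periphery and 11.9 ± 2.0 in the centre (-0.44 ± 0.17, adjusted p = 0.148), lower in 4 of 5. Kcnh2 in 42_AlphaOFFS averaged 153 in the periphery and 138 in the centre (0.21 ± 0.08, adjusted p = 0.162), higher in 5 of 5. Kcnh1 in 16_ooDS_DV averaged 22.7 ± 1.0 in the periphery and 20.3 ± 1.8 in the centre (0.18 ± 0.07, adjusted p = 0.187), also higher in 5 of 5. Along Y, a pair of types was called for Kcnh1 when only types with at least 100 cells per side entered, though not here. Kcnh1 in 43_AlphaONS averaged 7.67 ± 1.90 at positive Y and 5.00 ± 3.55 at negative Y (0.83 ± 0.32, adjusted p = 0.347), higher in 4 of 5 retinas. Kcnh1 in 42_AlphaOFFS averaged 17.9 ± 2.5 at positive Y and 22.1 ± 4.9 at negative Y (-0.36 ± 0.16, adjusted p = 0.372), lower in 4 of 5.

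Counted over types, Kcnq3 was below 0 in 31 of 40 types along the radius, with a median log2 difference of -0.11, against 48.9% of all type-gene pairs below 0. Among the 179 genes fitted in all 40 types, Kcnq3 included, 35 had at least as large a share below 0 there. Kcnh2 was below 0 in 36 of 42 types along Y, with a median of -0.065, against 48.6% of all pairs, while Kcnq3 was above 0 in 30 of 42 types there. Among the 194 genes fitted in all 42 types, Kcnh2 included, 11 had at least as large a share below 0 along Y as Kcnh2. Scaled to total puncta, Kcnh2 was below 0 along Y in 30 of 42 types (median -0.038) and Kcnq3 above 0 in 32 of 42. Leaving out each retina put the Kcnh2 median at -0.078 to -0.040, the weakest without retina 1 (26 of 38 types below 0). For Kcnq3 the median was 0.012 to 0.098, the lowest without retina 4 (21 of 38 types above 0). Types of 1 retina share its sections, and these counts carry no test.

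Cell size was set against the median volume of the cell's own type in its own retina, so larger and smaller cells held the same mix of types. Per 10000 puncta, the 3 genes hardly differed. Kcnh2 averaged 66.0 ± 2.1 in larger cells and 65.7 ± 2.2 in smaller cells, Kcnq3 averaged 24.4 ± 1.3 in larger cells and 24.4 ± 1.0 in smaller cells, and Kcnh1 averaged 13.5 ± 1.1 in larger cells and 13.5 ± 0.71 in smaller cells, with each gene higher in some retinas and lower in others. In the edgeR fit, 191 of 300 genes or 63.7% were called, 29% higher and 34.7% lower. The called genes included Kcnh2 (log2 difference 0.07 ± 0.02, adjusted p = 0.0118) and Kcnq3 (0.06 ± 0.02, adjusted p = 0.0498), but not Kcnh1 (0.07 ± 0.03, adjusted p = 0.0867). These differences came with the TMM scaling of that fit. Scaled to total puncta they were 0.0063, -8.49e-05 and 0.0034. The call was lost for Kcnh2 without retina 4 (adjusted p = 0.0689) and for Kcnq3 without retinas 1, 2 or 4 (adjusted p = 0.0864, 0.199 and 0.223), and Kcnh1 was called without retina 3 (adjusted p = 0.0125). Of the 30 Kcn genes 18 were higher and 3 lower in the TMM fit, led by the auxiliary subunit gene Kcnab2 (0.22) and, on the lower side, Kcna5 (-0.25). Several lists of markers of other cells were lower in larger cells as well. Of the 8 bipolar cell markers 7 were lower, and the sum of the 8 was 28.9 to 48.8 per 10000 in larger cells and 37.3 to 64.2 in smaller cells. Of the 9 amacrine markers on the panel 7 were lower, as were 4 of 5 Mueller glia markers and 2 of 3 rod markers. Of the 4 horizontal cell markers 2 were higher and 1 was lower, with a median log2 difference of 0.09 over the 4. Neither the 2 microglia nor the 2 cone markers were called, and the part of such puncta in the differences by size was not tested.

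Whether the channel genes occur in the same cells was asked with each cell thinned to 100 puncta, by the log2 odds ratio of detecting both, where 0 means independent detection. All genes of a cell share that fixed total of 100 puncta, which lowers the value slightly, by an amount that was not measured. Over all cells Kcnh1 and Kcnh2 stood at 0.17, 0.10, 0.084, 0.16 and 0.13 in retinas 1 to 5 (mean 0.13 ± 0.037, SD). Kcnh1 and Kcnq3 stood at 0.20, 0.082, 0.28, 0.099 and 0.089 (0.15 ± 0.087). Both pairs were thus found together slightly more often than independent detection gives in all 5 retinas. Kcnh2 and Kcnq3 stood at -0.13, -0.14, 0.025, -0.14 and 0.0074 (-0.074 ± 0.083), below 0 in 3 of 5. Within types the mean odds ratios were 0.067 ± 0.035 for Kcnh1 with Kcnh2, 0.086 ± 0.083 for Kcnh1 with Kcnq3 and 0.0028 ± 0.076 for Kcnh2 with Kcnq3. An exact permutation test that flips the signs of the 5 values (two-sided) had p = 0.063, the smallest that 5 retinas allow, for both Kcnh1 pairs over all cells and within types, and p = 0.25 and 1 for Kcnh2 with Kcnq3. Adjusted over the 3 pairs, separately over all cells and within types, the Kcnh1 pairs had p = 0.0938 in that permutation test. In the cells as deposited, where deeper cells hold more of every gene, the 6 values were 0.56 to 0.75.

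Cells with at least 1 punctum of a channel gene were then compared with cells without one, with each type given the same weight on both sides. Along with Kcnh1, the melanopsin gene Opn4 rose most. It stood at 7.24 ± 0.41 puncta per 10000 with Kcnh1 and 3.79 ± 0.48 without (log2 difference 0.92 ± 0.07, adjusted p = 0.000595 in limma). The T-box transcription factor genes Tbx20 (0.53 ± 0.03, adjusted p = 0.000223) and Eomes (0.25 ± 0.02, adjusted p = 0.000879), and Igf1 (0.25 ± 0.02, adjusted p = 0.000595), were also higher in 5 of 5 retinas. Zcchc12 (0.36), Rab3b (0.36), the collagen gene Col9a1 (0.31) and Nell1 (0.22) completed the 8 genes named on the higher side.

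Markers of other retinal cells were among the 8 genes named on the lower side. The endothelial gene Cdh5 (-1.22 ± 0.11, adjusted p = 0.000879 in limma), Cd9 (-0.89), Igfbp7 (-0.77), the microglia gene Tmem119 (-0.76), the horizontal cell gene Lhx1 (-0.72), Gsg1 (-0.69) and the bipolar cell genes Vsx1 (-0.67) and Pcp2 (-0.56) were lower in all 5 retinas. In all 169 of 299 genes or 56.5% were called, 54 higher and 115 lower. Cells with Kcnh1 held a median of 359 puncta, against 280 without, and were larger. With every cell thinned to 100 puncta, an alternative added after the data were seen, 15 genes were called in limma, not all of which are named here. Of the genes named on the higher side, Opn4 (0.69 ± 0.06, adjusted p = 0.00557), Tbx20 (0.38, adjusted p = 0.00557), Igf1 (0.22, adjusted p = 0.0127), Nell1 (0.20, adjusted p = 0.0388) and Zcchc12 (0.27, adjusted p = 0.0224) were still called. Of those named on the lower side, Cdh5, Igfbp7 and Cd9 were still called (adjusted p = 0.0224, 0.00557 and 0.0224). Tmem119, Lhx1, Gsg1, Vsx1 and Pcp2 were not (adjusted p = 0.251, 0.0727, 0.116, 0.106 and 0.148), and Tmem119 was higher in 2 of 5 retinas.

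The Opn4 difference was looked at in single types after its value was seen, so it is given without a test. In 33_M1, Opn4 stood at 258, 209, 150, 215 and 160 puncta per 10000 in cells with Kcnh1 of retinas 1 to 5, against 67.6, 64.2, 53.9, 58.0 and 47.4 in cells without. The sides did not overlap, and the mean log2 ratio was 1.75 ± 0.18 (SD) in the cells as deposited and 1.17 ± 0.17 after thinning. In 40_M1dup Opn4 averaged 321 ± 36 with Kcnh1 and 146 ± 78 without. In 31_M2 it averaged 80.3 ± 4.4 with Kcnh1 and 36.6 ± 4.7 without, and both types were higher in 5 of 5 retinas. Thinning put the mean log2 ratio at 0.78 ± 0.32 in 40_M1dup, which was 1.29 as deposited, and at 0.74 ± 0.38 in 31_M2, which was 1.14. In 22_M5 it averaged 34.2 ± 4.6 with Kcnh1 and 29.0 ± 4.5 without, higher in 4 of 5.

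Puncta of other cells moved with that split in 33_M1 and 31_M2. In 33_M1 the microglia and endothelial markers Tmem119, Aif1 and Cdh5 summed to 4.22 to 20.2 per 10000 in cells with Kcnh1 and to 43.7 to 76.1 in cells without, over the retinas. In 31_M2 they summed to 2.65 to 12.2 with Kcnh1 and to 25.1 to 51.4 without. The ranges overlapped in 40_M1dup, at 2.04 to 11.3 with Kcnh1 and 3.18 to 111 without. They also overlapped in 22_M5, at 0.74 to 5.96 with Kcnh1 and 2.24 to 6.61 without. Leaving out every cell with a punctum of these 3 genes left 692 cells with Kcnh1 and 520 without in 33_M1, and a mean log2 ratio of Opn4 of 1.69 ± 0.22, or 1.03 ± 0.24 after thinning. In 31_M2 the same step gave 0.99 ± 0.19, or 0.56 ± 0.45 after thinning with 4 of 5 retinas higher. In 40_M1dup it gave 1.23 ± 0.68, or 0.77 ± 0.41 after thinning. That step took out only cells with a decoded punctum of these 3 genes. Amacrine and Mueller glia markers were not compared across this split in single types. The part of puncta of other cells in the Opn4 difference was not tested.

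With Kcnh2, Opn4, Tbx20 and Eomes again led the higher side. Those called were Opn4 (0.49 ± 0.07, adjusted p = 0.00234 in limma), Tbx20 (0.26), Eomes (0.21), the lipase gene Lpl (0.18), the neuropeptide precursor gene Vgf (0.17), Kcnh1 itself (0.16 ± 0.02, adjusted p = 0.00250), Igf1 (0.15) and the calcium channel gene Cacna1a (0.14). On the lower side stood Cdh5 (-1.65 ± 0.07, adjusted p = 3.30e-05), Tmem119 (-1.40), Cd9 (-1.33), Igfbp7 (-1.11), Mfge8 (-1.05) and the photoreceptor genes Rpgrip1 (-1.25), Gngt2 (-1.07) and Cngb1 (-1.06). Of 299 genes 185 or 61.9% were called, and 83 after thinning, when Kcnh1 (0.040 ± 0.025, adjusted p = 0.267), Igf1 (adjusted p = 0.130), Cngb1 (adjusted p = 0.133) and Rpgrip1 (adjusted p = 0.0659) were no longer called. Cells with Kcnh2 held a median of 329 puncta, against 216 without.

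With Kcnq3 the higher side had other leading genes: Vgf (0.23 ± 0.02, adjusted p = 0.000581 in limma), the matrix metalloprotease gene Mmp9 (0.22 ± 0.03, adjusted p = 0.00209), the tachykinin gene Tac2 (0.22), Nell1 (0.22), the protocadherin gene Pcdh8 (0.19), the GABA receptor subunit gene Gabra2 (0.13), Rab3b (0.12) and Eomes (0.11). Nell1 was also among the genes most like Kcnq3 over the types, and here it differed within the same mix of types, at 41.6 ± 1.8 puncta per 10000 with Kcnq3 and 35.8 ± 0.98 without. Bipolar cell genes stood on the lower side. Those named were Vsx1 (-1.29), Grm6 (-1.05), Otx2 (-1.04) and Gabrr2 (-1.10), with Gsg1 (-1.44 ± 0.14, adjusted p = 0.000723), Lrtm1 (-1.13), Cdh5 (-1.15) and Tmem119 (-1.03). In all 199 of 299 genes or 66.6% were called, and 86 after thinning, when Vgf (0.15), Mmp9 (0.17), Tac2 (0.33), Nell1 (0.18), Pcdh8 (0.11) and Gabra2 (0.11) were still called and Rab3b and Eomes were not (adjusted p = 0.0672 and 0.0834). Cells with Kcnq3 held a median of 348 puncta, against 261 without.

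Set against each other in these comparisons, Kcnh1 stood 0.059 ± 0.015 higher in log2 level with Kcnq3 (adjusted p = 0.0154 in limma) and Kcnq3 0.050 ± 0.011 higher with Kcnh1 (adjusted p = 0.0127). Kcnh2 was not called with Kcnq3 (-0.0017 ± 0.015, adjusted p = 0.930). After thinning none of the 3 genes was called with another.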

How the data were processed

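The authors imaged transcripts with Xenium in 20 µm en face cryosections of wild-type retina, using 300 custom probe sets. Each line of the deposited table is a cell, with its count of puncta for every gene as whole numbers that were used as deposited. Per the file headers, a line also names the retina, slide and section and gives the position, volume and assigned type. How cells were segmented and filtered, how types were assigned and the genome build are not given in the sources used here. The 4 deposited samples are pairs of slides that no label ties to the table, so the replicate was the retina (n = 5), and 2 of the 8 slides held more than 1 retina. The unit of volume is not stated.

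For each side of each retina, the counts of all cells were added up. Position and size were tested with edgeR 4.0.16 (R 4.3.3), with the quasi-likelihood test, retina as a block, TMM and filterByExpr. The p-values were adjusted by Benjamini-Hochberg over the panel, and the threshold was 0.05. DESeq2 1.42.0 was the alternative. Sides within types needed 50 cells in at least 3 retinas, and all pairs of type and gene along an axis were adjusted together. Comparisons in the same mix of types weighted types with at least 20 cells per side alike and used limma 3.58.1 on the 5 differences of log2(level + 0.1), for genes with at least 100 puncta. Co-detection added 0.5 to each count. Correlations over types used log2(level + 1). Python 3.11.15 with numpy 2.4.6, pandas 2.3.3, scipy 1.17.1 and matplotlib 3.10.9 did the rest. The fits were tested on simulated data.

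The 3 genes and all lists were chosen with earlier results of these data known. Named were the 5 highest and 5 lowest types per gene, the 5 most like and 3 most opposed genes, up to 8 genes in each direction that were called and moved one way in every retina, and every Kcn gene called along an axis. Kcnq1ot1, which is non-coding, was left out of the Kcn genes, and a further panel gene is not reported here. Types were also compared within name groups and Opn4 within single types, both chosen after their values were seen. Alternatives were other tools, scalings, blocks, splits, filters and gates, and leaving out each retina. The retinas held 4048481 to 12879454 puncta.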

Additional observations from a re-analysis of the deposited data

Results flagged for a closer look

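Along the X axis, the log2 difference of Kcnh1 in retina 5 stood apart, at 0.107 from puncta per 10000, against 0.022 to 0.044 in the other 4 retinas. It was the 1 case of 51 groups of 5 retinas that were looked at, of which chance alone would mark about 1 in 20. The difference had the same direction in all 5 retinas.

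Kcnh2 moved in opposite directions along X in a pair of types. In 43_AlphaONS it was higher at positive X in all 5 retinas, with a log2 difference of 0.13 ± 0.05 and means of 79.2 ± 6.6 puncta per 10000 at positive X and 73.1 ± 3.3 at negative X. In 30_Novel it was lower at positive X in all 5 retinas, with a log2 difference of -0.14 ± 0.05 and means of 73.7 ± 6.9 at positive X and 80.0 ± 3.1 at negative X. Neither was called (adjusted p = 0.412 and 0.326 in edgeR), and the difference between the types was not tested.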

How the results depend on the processing

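Per cell in place of per 10000 puncta, the types named as highest and lowest stood 7.35-fold apart for Kcnh2 and 4.92-fold for Kcnq3. On that scale the lowest types were 44_Novel for Kcnh2 and 14_ooDS_Cck for Kcnq3. Leaving out each retina in turn gave 22.0 to 24.7 for Kcnh1, 4.33 to 4.56 for Kcnh2 and 5.71 to 6.50 for Kcnq3. Where a value below changed, the cause was not tested. Calls with the section or slide as a block rest on sections or slides of the same retina counted as replicates.

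Along the radius, DESeq2 called 44 genes, edgeR without the retina as a replicate block 1, with the section as a block 51, with a split at 0.6 32, limma in the same mix of types 0, and edgeR without each retina in turn 2 to 53. The Kcnq3 difference lost its call scaled to total puncta (-0.12), without the replicate block (-0.13), with the section (-0.049) or the slide (-0.062) as a block and in the same mix of types (-0.096), kept it in DESeq2 and with the split at 0.6, and was -0.15 to -0.11 without each retina. In the same mix of types Kcnh2 turned to -0.0046.

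Along X, DESeq2 called 49 genes, edgeR without the replicate block 1, with the section as a block 57, limma in the same mix of types 0 and edgeR without each retina 2 to 43. In the same mix of types Kcnh1 turned to -0.0027 and Kcnh2 was 0.0065, and Kcnq3 was called with the section as a block (-0.095).

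Along Y, DESeq2 called 6 genes, the section as a block gave 64 and leaving out each retina 0 to 2. Kcnh1 turned to 0.059 with the section and 0.072 with the slide as a block and to 0.0051 without cells within 0.1 of 0. Kcnh2 turned to 0.0093 and 0.040 with those blocks. Without each retina the ranges were -0.021 to 0.0014 for Kcnh1, -0.020 to 0.0083 for Kcnh2 and -0.0040 to 0.055 for Kcnq3.

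By size, edgeR without the replicate block called 11 genes. Kcnh1 was called when the cells of middle volume were left out (0.12) and with the median of the own section (0.076). Kcnh2 was not called scaled to total puncta (0.0063), without the block (0.067) or without retina 4 (0.051). Kcnq3 was not called in DESeq2 (0.060), without the block (0.061), with the own section (0.048) or without retinas 1, 2 or 4, and turned to -8.49e-05 scaled to total puncta. Without each retina they were 0.043 to 0.096, 0.051 to 0.082 and 0.044 to 0.080 for Kcnh1, Kcnh2 and Kcnq3.

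In cells thinned to 100 puncta, 15, 83 and 86 genes were called with Kcnh1, Kcnh2 and Kcnq3, and Kcnq3 with Kcnh2 turned to -0.030. Over all cells with no weighting by type, Kcnh2 with Kcnq3 turned to 0.051, and without each retina it was -0.012 to 0.0090. Within types, Kcnh1 along Y was called in 2 types with at least 100 cells per side and in 0 to 1 without each retina, and Kcnq3 along the radius in 0 to 1. The log2 odds ratios in the cells as deposited were 0.75 for Kcnh1 with Kcnh2, 0.61 for Kcnh1 with Kcnq3 and 0.64 for Kcnh2 with Kcnq3 over all cells, and 0.70, 0.56 and 0.70 within types. With at least 2 puncta required they were 1.16, 0.91 and 0.73 over all cells, and 1.06, 0.89 and 0.86 within types. Within types after thinning, Kcnh2 with Kcnq3 was -0.019 to 0.020 without each retina.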
